A study of Mus musculus with 3 samples.

Results

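Matrix metalloproteinases are secreted or membrane-bound zinc enzymes that cut the proteins of the extracellular matrix, and tissue inhibitors of metalloproteinases (TIMPs) bind them and block their active site. The 10 genes described here are 3 inhibitors, Timp1, Timp2 and Timp3, and 7 enzymes, Mmp2, Mmp8, Mmp9, Mmp12, Mmp13, Mmp14 and Mmp19. They were chosen by name, as the rows of a single-cell count matrix that carry these symbols, and all 10 were found among its 55357 rows. Each was counted as unique molecular identifiers (UMIs, 1 for each captured RNA molecule) in every cell class of 3 mouse liver libraries.

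Single-cell RNA sequencing compared livers of untreated mice with 2 models of chronic liver injury. All mice were male C57BL/6 and entered the study at 8 weeks of age. The control library came from mice left without treatment, the HFD library from mice given feed with 60% of its calories as fat (a model of steatohepatitis) for 4 months, and the CCl4 library from mice kept on chow for 3 months and then injected into the peritoneum with 0.1 mL of a 10% carbon tetrachloride solution, 2 times per week for 4 weeks (a model of fibrosis). Each library pooled 2 mice, and hepatocytes and nonparenchymal cells, freed by collagenase perfusion, had been mixed 1:1 before loading. The control mice had no vehicle injections, and their age at isolation is not given in the sources used here.

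With 1 library per condition, no difference between libraries could be tested against the spread between mice. The intervals below are exact 95% intervals that cover counting error only, and conditions, pools and library runs cannot be told apart. The libraries held 11245 (control), 12984 (HFD) and 12761 (CCl4) barcodes with median depths of 2939, 2336 and 2173 UMIs, and no barcode had fewer than 1629 UMIs. A level is given as CPM, the counts per 1e6 UMIs of the class in that library. Marker genes fixed without the 10 genes named 17 cell classes, written here with the ending -like. RNA of hepatocytes was found in all classes: the summed hepatocyte marker list in B cell-like cells reached 41.9% of its level in hepatocyte-like cells in the control library, 77.9% in the HFD library and 84.6% in the CCl4 library. B cell-like cells, a cell type in which these genes are not typical, serve below as the background. Between 36 and 52 barcodes were shared by each pair of libraries.

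In the liver the matrix is laid down mainly by fibroblasts and stellate cells, and its removal depends on enzymes from these cells, from macrophages and from neutrophils. Mmp2 and Mmp9 are gelatinases, Mmp8 and Mmp13 collagenases, Mmp12 the macrophage elastase and Mmp14 a membrane-bound enzyme that activates the Mmp2 proenzyme together with Timp2. Timp3 differs from the other inhibitors in that it binds to the matrix.

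The collagenase, stromelysin and elastase genes form a cluster on mouse chromosome 9. In GENCODE M21 (GRCm38), Mmp13 spans 7272514 to 7283331, Mmp12 7344381 to 7369499 and Mmp8 7558456 to 7568485 of chromosome 9, all on the plus strand. RefSeq windows of 250 bases before to 50 bases after a start (GRCm38.p6) were at hand for 7 of the 10 genes, 8 windows in all. The AP-1 heptamer, searched as TGAGTCA or TGACTCA on both strands, was in 5.20% of 32851 windows and, among the 10 genes, in those of Mmp13 and Mmp12. In the control library the UMIs of these 2 genes lay mostly in Kupffer cell-like cells (below). The 60 bases before each start are shown for that reason, with the heptamer in capitals.
Mmp13, chr9:7272454-7272513, plus strand: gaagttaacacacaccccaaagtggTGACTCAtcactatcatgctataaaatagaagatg
Mmp12, second start, chr9:7347314-7347373, plus strand: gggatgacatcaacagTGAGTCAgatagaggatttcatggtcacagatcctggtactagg
The heptamer begins 35 bases before the Mmp13 start and 44 bases before the second Mmp12 start, which lies inside the Mmp12 span given above. Among Mmp12 windows, only that of this second start held the heptamer. The letters TATAAA (either strand), present in 13.6% of all windows, were in those of Mmp13, Mmp12 and Mmp8. The 60 bases shown hold these letters for Mmp13 and not for Mmp12. These matches describe the letters of the windows, and binding was not measured.

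Timp3 (chromosome 10, 86300372 to 86349506, plus strand) lies within Syn3, which is on the opposite strand and had 52, 39 and 30 UMIs in the control, HFD and CCl4 libraries. Mmp19 (chromosome 10, 128790910 to 128800824, plus strand) overlaps Tmem198b on the opposite strand, which had 66, 59 and 58 UMIs. How strand was used in counting is not given in the sources used here, so reads of such pairs may be shared.

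Over all cells the inhibitors held 3537 of the UMIs of the 10 genes in the control library, 1697 in the HFD library and 606 in the CCl4 library. This was 46.5% (95% interval 45.4 to 47.7), 41.3% (39.8 to 42.8) and 33.0% (30.8 to 35.2) of the total. Among enzyme UMIs of kept cells, Mmp19 gave 622 of 4064 in the control, 701 of 2411 in HFD and 938 of 1233 in CCl4. The CCl4 share thus depended mostly on this gene. The cell mix differed too, with hepatocyte-like cells at 44.3, 49.2 and 55.2% of kept cells. Single barcodes held 274 and 207 of the control Timp3 UMIs (below). The most abundant gene was Timp3 with 2598 UMIs in the control library, 976 in the HFD library and 367 in the CCl4 library. Mmp19 was the only one of the 10 whose UMI total was highest in the CCl4 library, with 624, 701 and 938 UMIs. Mmp2, at 23, 34 and 6 UMIs, Mmp12, at 45, 19 and 13, and Mmp13, at 68, 15 and 2, were the sparsest enzymes, and Timp1 gave 81, 14 and 8.

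The clearest patterns of these genes were stromal and myeloid. Timp1, Mmp14 and Mmp19 had more control UMIs in the numerous hepatocyte-like cells than in any other class, but higher control levels elsewhere. In the control library Timp3 was highest in endothelial-like cells and Timp2 and Mmp2 in fibroblast-like cells, Mmp8 and Mmp9 in granulocyte-like cells, and Mmp12 and Mmp13 in Kupffer cell-like cells. Inhibitor UMIs made up 95.5% of the UMIs of the 10 genes in control endothelial-like cells, 98.4% in smooth muscle-like, 91.0% in cholangiocyte-like and 87.1% in fibroblast-like cells. They made up 5.71% in granulocyte-like cells and 18.3% in hepatocyte-like cells. This order was the same in the HFD library (91.8, 96.0, 90.5, 83.4, 7.95 and 10.8%), whereas in the CCl4 library these 2 classes stood at 4.35% (interval 1.20 to 10.8) in granulocyte-like and 3.49% (2.31 to 5.04) in hepatocyte-like cells.

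**Figure D1:**
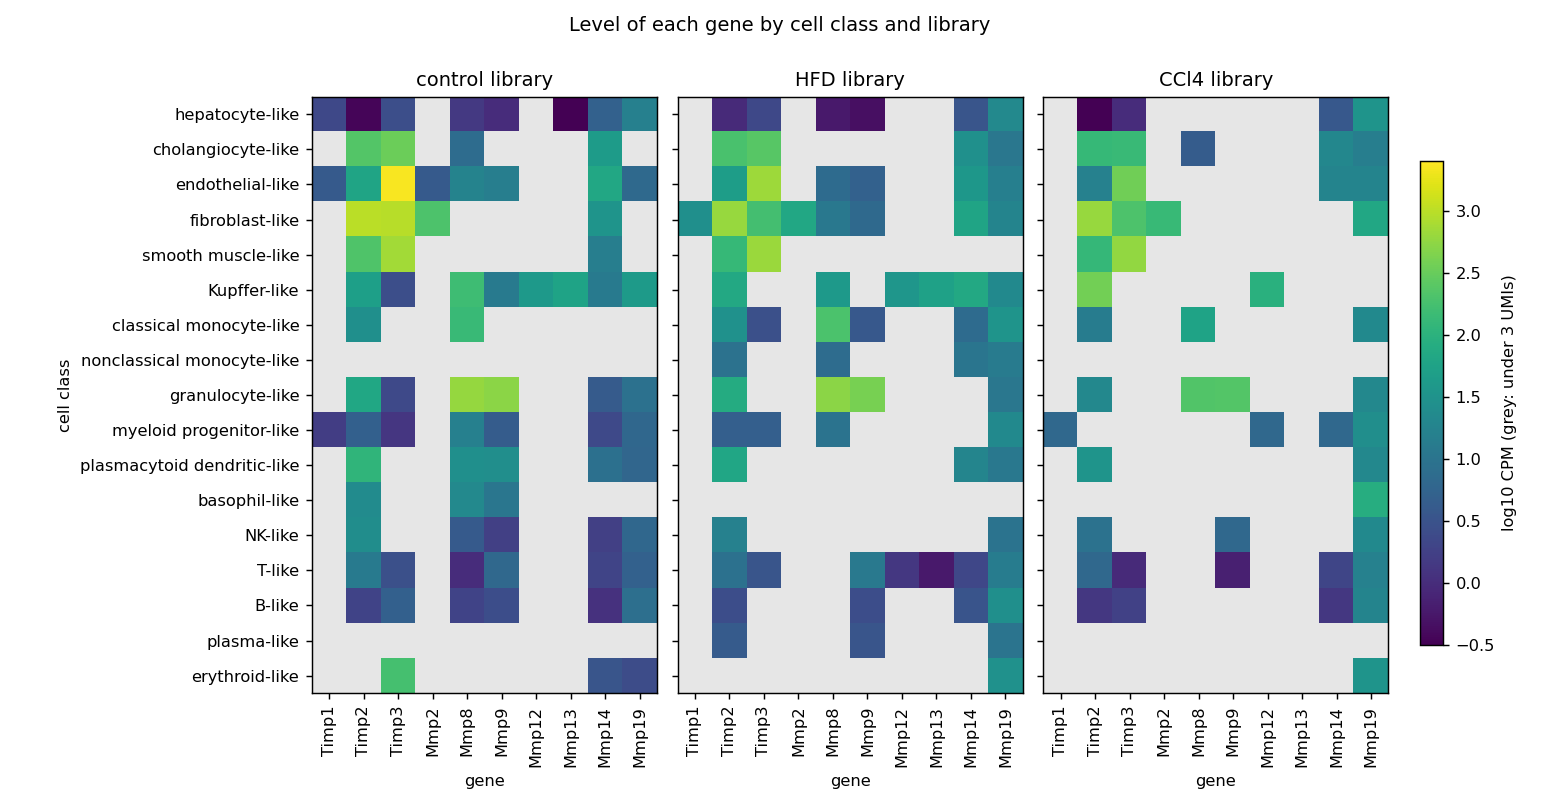
Level of each of the 10 genes (horizontal axis) in 17 cell classes (vertical axis) in the control, HFD and CCl4 libraries, as the log10 of CPM in colour, with grey where fewer than 3 UMIs were counted. Timp3 in control endothelial-like cells has the highest level (2317 CPM), Mmp8 and Mmp9 stand out in granulocyte-like cells, and Mmp19 has a level in nearly every class.

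Timp3 was highest in endothelial-like cells of all 3 libraries among classes of at least 20 cells. Smooth muscle-like cells, with 10 cells in HFD and 18 in CCl4, fell under that limit. Their CCl4 level of 587.4 CPM (390 to 849) was higher than the endothelial one (interval 313 to 416). In CCl4 the endothelial rank thus held only under that limit. Control endothelial-like cells held 1717 of its UMIs, a level of 2317 CPM (interval 2208 to 2429), and fibroblast-like, smooth muscle-like and cholangiocyte-like cells followed at 973.6, 719.8 and 340.1 CPM. Each of these levels differed from the next beyond counting error. B cell-like cells stood at 4.98 CPM (13 UMIs) and hepatocyte-like cells at 2.73 CPM. A UMI was found in 152 of 156 control endothelial-like cells (97.4%, median depth 3952.5 UMIs) against 1.16% of B cell-like cells (median 1948.5), and after thinning each cell to 1000 UMIs the shares were 77.6% and 0.559%.

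In HFD endothelial-like cells the level of Timp3 was 676.0 CPM (656 UMIs in 225 of 329 cells) and in CCl4 endothelial-like cells 362.2 CPM (197 UMIs in 91 of 165 cells). The ratio to the control was 0.292 (0.266 to 0.319) for HFD and 0.156 (0.134 to 0.181) for CCl4. The endothelial markers themselves also stood lower in these classes. Their summed list of 12 genes was at 0.649 (0.627 to 0.671) of its control level in the HFD library, where 2 of the 12 genes were at least 2-fold lower, and at 0.255 (0.241 to 0.270) in the CCl4 library, where all 12 were. Set against this list, Timp3 gave 231.7 UMIs per 1000 marker UMIs in the control, 104.2 in HFD and 141.8 in CCl4, ratios of 0.450 (0.411 to 0.493) and 0.612 (0.525 to 0.710). The order of HFD and CCl4 thus turned round per marker UMI.

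A single control barcode of 15848 UMIs held 274 of the 1717 Timp3 UMIs. Without the barcode richest in Timp3 in each library, the ratios of CPM were 0.333 and 0.175, and the ratios per marker UMI 0.514 (0.468 to 0.565) and 0.690 (0.590 to 0.804). Lrat, a marker of stellate cells, had 149 UMIs in 12.2% of control endothelial-like cells, 35 UMIs in 4.56% of HFD and 5 UMIs in 1.21% of CCl4 endothelial-like cells. Clustering at resolution 2.0 left 13, 8 and 0 Lrat UMIs among the endothelial-like cells, and the Timp3 ratios were then 0.277 and 0.171. At that resolution a cluster led by Ptprb, Kdr and Rspo3, genes of liver endothelium, held 142 control, 267 HFD and 82 CCl4 cells, with Timp3 at 2428, 768.2 and 653.4 CPM. A cluster led by Adam23, Gpr182 and Cdh5 held 19, 84 and 74 cells, with Timp3 at 73.9 (24.0 to 172), 84.2 (51.4 to 130) and 149 (108 to 202) CPM. The intervals of the control and HFD levels did not overlap in the first of these clusters and overlapped in the second.

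Timp3 was also lower in fibroblast-like and cholangiocyte-like cells of the 2 injury libraries. Fibroblast-like cells had 89, 76 and 9 UMIs in 23, 136 and 15 cells, and levels of 973.6, 174.2 and 204.3 CPM. The ratios were 0.179 (0.130 to 0.246) and 0.210 (0.0929 to 0.417), and 0.574 (0.417 to 0.788) and 0.477 (0.211 to 0.946) per UMI of the 13 fibroblast markers, which were themselves at 0.312 and 0.440 of their control level. Cholangiocyte-like cells had 340.1, 241.5 and 138.7 CPM, ratios of 0.710 (0.577 to 0.871) and 0.408 (0.319 to 0.517), or 0.813 and 0.671 per marker UMI. Smooth muscle-like cells had 719.8, 641.8 and 587.4 CPM (197, 20 and 28 UMIs), and the intervals of both ratios, 0.533 to 1.41 and 0.529 to 1.22, included 1. Per UMI of the smooth muscle markers the CCl4 ratio was 2.15 (1.40 to 3.21).

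Erythroid-like cells of the control library held 212 Timp3 UMIs, of which 207 were in 1 barcode of 112469 UMIs. This barcode had 3899 UMIs of the 8 megakaryocyte and platelet markers (3395 of them Pf4, platelet factor 4) and 15 of the erythroid markers. The Timp3 level in it was 1841 CPM.

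**Figure D2:**
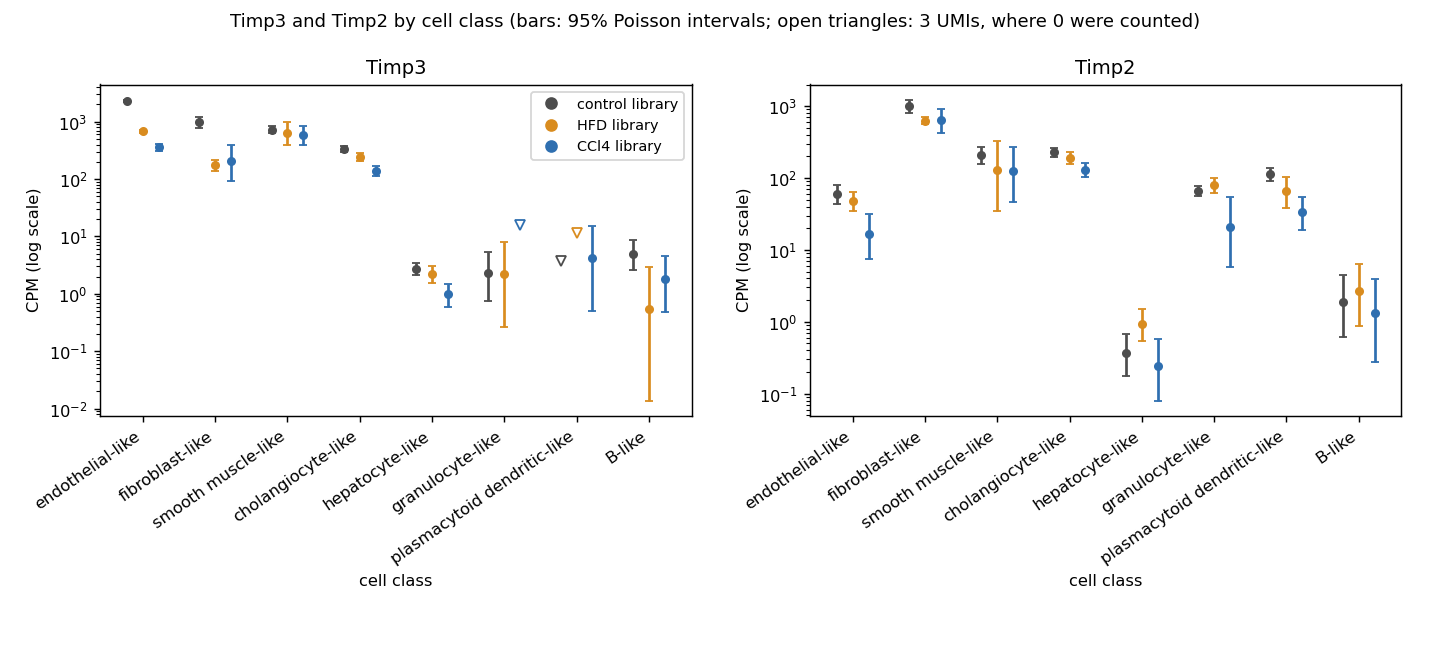
CPM of Timp3 (left) and Timp2 (right) on log axes in 8 cell classes for the control, HFD and CCl4 libraries, with exact 95% Poisson intervals, and open triangles at the level of 3 UMIs where none was counted. Timp3 is ordered control, HFD, CCl4 in endothelial-like cells and nearly level in smooth muscle-like cells, and Timp2 is highest in fibroblast-like cells of all 3 libraries.

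Timp2 was the broadest inhibitor and was highest in fibroblast-like cells. There it had 92, 274 and 28 UMIs in the control, HFD and CCl4 libraries, levels of 1006 (811 to 1234), 628.1 (556 to 707) and 635.6 (422 to 919) CPM. A UMI was present in 91.3, 74.3 and 73.3% of these cells (median depths 3516, 2746 and 2428 UMIs), against 0.482, 0.627 and 0.282% of B cell-like cells (1948.5, 2128 and 1935). The ratios to the control were 0.624 (0.491 to 0.799) for HFD and 0.631 (0.398 to 0.973) for CCl4. Per UMI of the fibroblast markers they were 2.00 (1.57 to 2.56) and 1.43 (0.904 to 2.21), and with the fibroblast-like cluster as drawn at resolution 2.0 the levels were 544.5, 580.1 and 560.4 CPM. The direction between libraries therefore changed with the scale and with the clustering.

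Below the fibroblasts, Timp2 stood at 227.6, 190.0 and 129.9 CPM in cholangiocyte-like cells and at 208.3, 128.4 and 125.9 CPM in smooth muscle-like cells, and the control levels of these 2 classes did not differ beyond counting error. The CCl4 ratio in cholangiocyte-like cells was 0.571 (0.437 to 0.740), and 0.939 (0.720 to 1.22) per UMI of the cholangiocyte markers. Unlike Timp3, Timp2 was also found in leukocytes. Plasmacytoid dendritic-like cells had 113.9, 65.0 and 33.2 CPM, granulocyte-like cells 66.9, 78.9 and 21.1 CPM and NK cell-like cells 26.2, 16.4 and 9.28 CPM, beside 1.91, 2.68 and 1.33 CPM in B cell-like cells. The CCl4 ratios were 0.292 (0.160 to 0.499) in plasmacytoid dendritic-like cells, 0.354 (0.159 to 0.713) in NK cell-like cells and 0.316 (0.0848 to 0.825) in granulocyte-like cells, the last resting on 4 UMIs. Kupffer cell-like cells were the exception, with 50.9, 71.6 and 375.5 CPM, a CCl4 ratio of 7.37 (4.19 to 12.5). The CCl4 value rested on 20 UMIs in 7 of 19 cells, 8 of them in 1 cell, and the control class at this resolution also held cells with monocyte genes (below). At resolution 2.0 the Timp2 levels were 79.6 (53.3 to 114), 29.0 (17.2 to 45.9) and 235.7 (144 to 364) CPM. Of the 253 HFD cells there, 192 were in a cluster led by Cxcl13 (below), with Timp2 at 9.03 CPM. In the cluster led by C1qa, C1qb and C1qc (below) the levels were 79.6 (53.3 to 114), 79.3 (43.4 to 133) and 268.6 (164 to 415) CPM. The HFD level was thus not lower in that cluster.

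Timp1, the inducible inhibitor of the family, gave few UMIs. Fibroblast-like cells of the HFD library had 12 UMIs in 10 of 136 cells, 27.5 CPM (14.2 to 48.1), and those of the control library 2 UMIs in 23 cells, 21.9 CPM (2.65 to 79.0). No UMI was counted in the 15 fibroblast-like cells of the CCl4 library, which allows up to 68.1 CPM, so a level like that of the other libraries was not detectable at this depth. Hepatocyte-like cells held most of the control UMIs, 61 in 52 of 4961 cells (2.22 CPM), and 0 UMIs in 6389 HFD cells (up to 0.174 CPM) and 2 UMIs in 7044 CCl4 cells (0.0975 CPM). In the control these UMIs were spread over both hepatocyte-like clusters, at 1.87 CPM in the one led by Mt1, Saa2 and Saa1 and 2.57 CPM in the one led by Steap4, Il1r1 and Serpina3n.

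Mmp8, neutrophil collagenase, and Mmp9, gelatinase B, were granulocyte genes. Granulocyte-like cells had 1337, 480 and 41 Mmp8 UMIs, levels of 612.5 (580.1 to 646), 533.7 (487 to 584) and 216.3 (155 to 293) CPM in the control, HFD and CCl4 libraries. Mmp9 had 1159, 354 and 43 UMIs there, at 531.0 (501 to 562), 393.6 (354 to 437) and 226.9 (164 to 306) CPM. In B cell-like cells Mmp8 stood at 1.91, 0.537 and 0 CPM and Mmp9 at 2.68, 2.68 and 0 CPM, where a count of 0 allows 1.33 CPM. Mmp8 was found in 51.7, 51.7 and 19.8% and Mmp9 in 64.2, 57.3 and 33.0% of granulocyte-like cells (median depths 2609, 2228 and 1919 UMIs), against 0.289, 0.125 and 0% for Mmp8 in B cell-like cells. Of the 318 Mmp8-positive control granulocyte-like cells, 238 also had an Mmp9 UMI (74.8%, against 64.2% of all). In HFD these were 113 of 178 (63.5%, against 57.3%) and in CCl4 7 of 18 (38.9%, against 33.0%). Depth per cell and cluster were not held equal in these shares.

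The HFD library was close to the control and the CCl4 library lower on the CPM scale. The Mmp8 ratios were 0.871 (0.783 to 0.968) and 0.353 (0.252 to 0.482), and those of Mmp9 0.741 (0.656 to 0.836) and 0.427 (0.308 to 0.579). The 11 granulocyte markers were at 0.901 and 0.230 of their control level, and 8 of the 11 were at least 2-fold lower in CCl4. Per UMI of these markers the CCl4 ratios were above 1, at 1.53 (1.10 to 2.09) for Mmp8 and 1.86 (1.34 to 2.52) for Mmp9, so their direction turned with the scale. In HFD they were 0.967 (0.8698 to 1.07) and 0.823 (0.729 to 0.928). This scale rested mostly on S100a8 and S100a9, with 89981 and 97795 of 238902 marker UMIs in the control and 1631 and 2264 of 4776 in CCl4. Csf3r, also on the list, had 1179 of the 2182723 UMIs of the class in the control and 62 of 189528 in CCl4. Ratios per UMI of single markers were not tested.

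Both enzymes were highest in the cluster led by Camp, Ngp and Ltf, secondary granule genes of maturing neutrophils. It held 147 control, 68 HFD and 8 CCl4 cells, with Mmp8 at 1181, 727.8 and 1125 CPM and Mmp9 at 812.7, 437.5 and 535.6 CPM. The cluster led by Ifitm1, Wfdc17 and Retnlg held 130, 276 and 83 cells, with Mmp8 at 299.4, 458.3 and 117.1 CPM and Mmp9 at 423.9, 376.6 and 193.1 CPM. Another cluster, led by Retnlg, Csf3r and Asprv1 and made up of 338 control cells, had 373.7 CPM of Mmp8 and 394.1 CPM of Mmp9. Within the Camp cluster the CCl4 level of Mmp8 (interval 696 to 1719) overlapped that of the control (1101 to 1265), and the clusters took different shares of the granulocyte-like cells in each library.

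Classical monocyte-like cells held Mmp8, and Mmp9 there was near the background. Mmp8 had 25, 429 and 34 UMIs in 28, 719 and 222 cells, levels of 140.8 (91.1 to 208), 199.0 (181 to 219) and 58.9 (40.8 to 82.3) CPM. Mmp9 had 0, 8 and 0 UMIs in the same cells, 3.71 CPM in HFD beside 2.68 CPM in B cell-like cells. At resolution 2.0 a further cluster, of 176 control cells led by Vcan, Thbs1 and Chil3, was also classical monocyte-like, with Mmp8 at 229.5 CPM (165 UMIs, interval 196 to 267). At resolution 1.0 the control Kupffer cell-like class held 167 Mmp8 UMIs. The CCl4 level of Mmp8 at resolution 1.0 was 0.418 (0.242 to 0.731) of the control, and 0.367 (0.213 to 0.642) per UMI of the monocyte markers, with only 28 control cells. At resolution 2.0 the class held 204 control cells, and Mmp8 stood at 210.0 (181 to 242), 204.7 (186 to 225) and 63.1 (43.7 to 88.1) CPM in control, HFD and CCl4. There the HFD level was not above the control.

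**Figure D3:**
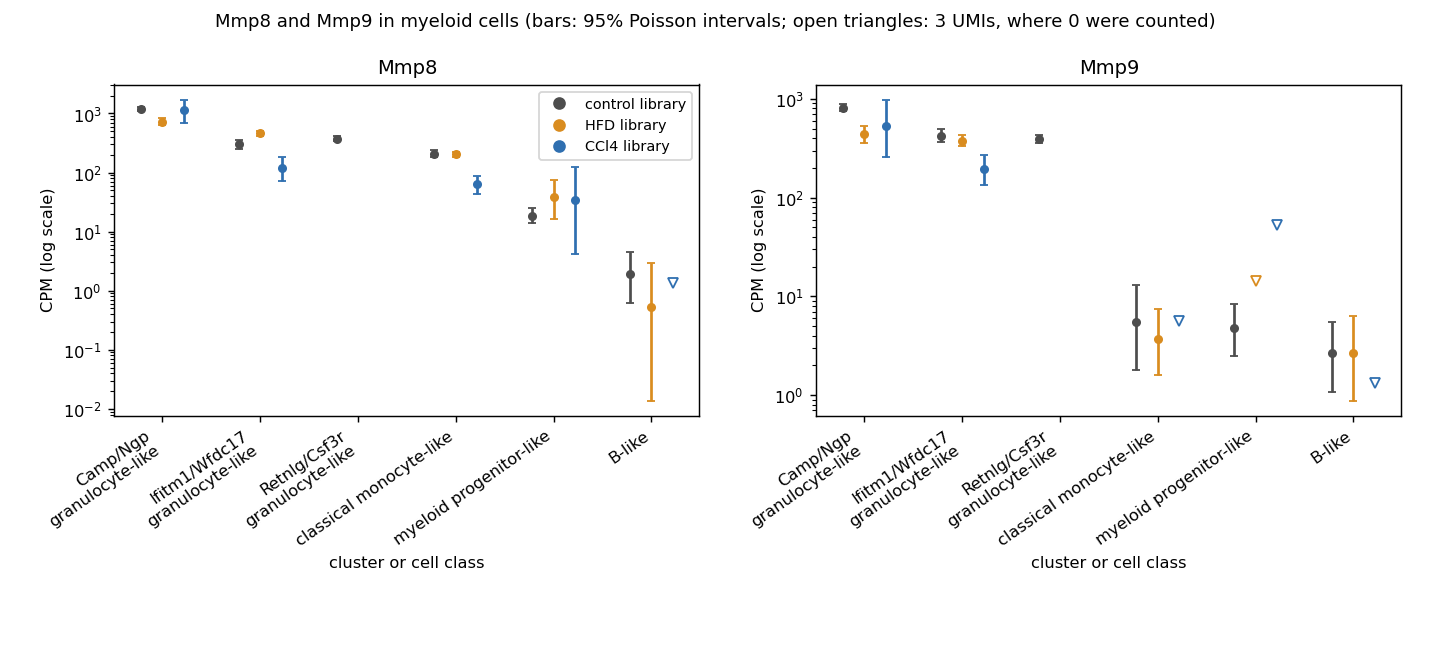
CPM of Mmp8 (left) and Mmp9 (right) on log axes in the 3 granulocyte-like clusters (resolution 1.0), in classical monocyte-like and myeloid progenitor-like cells (resolution 2.0) and in B cell-like cells, by library, with exact 95% Poisson intervals and open triangles at the level of 3 UMIs where none was counted. Both genes are highest in the Camp/Ngp cluster, and Mmp8 but not Mmp9 remains above the B cell-like level in classical monocyte-like cells.

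A few other classes owed their Mmp8 and Mmp9 to single barcodes. In control plasmacytoid dendritic-like cells, 16 of 23 Mmp8 UMIs and 10 of 22 Mmp9 UMIs lay in 1 barcode, which also had 455 UMIs of granulocyte markers and 56 of plasmacytoid dendritic markers. In control endothelial-like cells the 13 Mmp8 UMIs came from 2 cells. T cell-like cells had Mmp9 spread over many cells instead, 33 UMIs in 27 control cells (6.60 CPM), 60 in 58 HFD cells (11.8 CPM) and 3 in 3 CCl4 cells (0.685 CPM), with a control level of 10.5 CPM in the cluster led by Cd6, Icos and Ikzf2 and 0.608 CPM in the one led by Lef1, Tcf7 and Dapl1.

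Mmp12 and Mmp13 were highest in Kupffer cell-like cells in the control library. Of their control UMIs, 44 of 45 and 63 of 68 lay in Kupffer cell-like cells. In HFD these were 8 of 19 and 12 of 15, with 7 Mmp12 UMIs in T cell-like cells, and in CCl4 5 of 13 and 1 of 2. At resolution 2.0 as many UMIs of each gene lay in the cluster led by C1qa, C1qb and C1qc (complement C1q, made by macrophages). The exception was Mmp12 in HFD, with 7 in place of 8. In its 73 control, 61 HFD and 26 CCl4 cells, Mmp12 had 44, 7 and 5 UMIs, levels of 120.7 (87.7 to 162), 39.7 (15.9 to 81.7) and 67.2 (21.8 to 157) CPM, and Mmp13 had 63, 12 and 1 UMIs, levels of 172.8 (133 to 221), 68.0 (35.1 to 119) and 13.4 (0.340 to 74.8) CPM. The intervals of both HFD levels lay below those of the control, and so did that of the CCl4 level of Mmp13. These intervals treat UMIs as independent, and 16 of the 44 control Mmp12 UMIs of this cluster lay in 1 cell (below). Whether the Mmp12 levels stay apart without that cell was not tested. This cluster was chosen after its values were seen.

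Few cells carried these enzymes. The 44 Mmp12 UMIs of the control came from 7 cells, 16 of them from 1 cell, and the 63 Mmp13 UMIs from 18 cells. Of the 7 Mmp12-positive control cells, 3 also had Mmp13 (42.9%), against 24.7% of all cells of the class at resolution 2.0. The resolution 1.0 class was a mixture: Vcan, a monocyte gene, was found in 46.0% of its control cells, 6.17% of its HFD and 5.26% of its CCl4 cells. In that class the ratios were 0.894 (0.364 to 1.92) and 2.35 (0.726 to 5.90) for Mmp12 and 0.937 (0.460 to 1.75) and 0.328 (0.00817 to 1.89) for Mmp13, all with intervals that include 1. At resolution 2.0, where 2 clusters made up the Kupffer cell-like class, the HFD ratios were 0.107 (0.0435 to 0.230) and 0.112 (0.0550 to 0.210). Of the HFD cells of that class, 192 of 253 were in the cluster led by Cxcl13, C1qc and C1qa, with 1 Mmp12 and 0 Mmp13 UMIs, whereas all 73 control cells were in the C1qa-led cluster, so these ratios set different clusters side by side.

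Mmp2, gelatinase A, was a fibroblast gene. Fibroblast-like cells held 19 of 23 control, 30 of 34 HFD and 6 of 6 CCl4 UMIs, at 207.9 (125 to 325), 68.8 (46.4 to 98.2) and 136.2 (50.0 to 296) CPM. Of the cells with an Mmp2 UMI, 10 of 11, 15 of 17 and 3 of 4 also had Timp2, where 91.3, 74.3 and 73.3% of all fibroblast-like cells did. The HFD ratio was 0.331 (0.180 to 0.622) and turned to 1.06 (0.578 to 2.00) per UMI of the fibroblast markers, and the CCl4 ratio of 0.655 (0.214 to 1.71) rested on 6 UMIs. At resolution 2.0 the levels were 107.9, 61.7 and 115.9 CPM, ratios of 0.572 (0.319 to 1.04) and 1.07 (0.356 to 2.73). Of the fibroblast markers, Dcn, decorin, was found in 100, 97.8 and 93.3% of fibroblast-like cells of the control, HFD and CCl4 libraries and Col1a1, a collagen chain, in 82.6, 33.8 and 46.7%.

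Mmp14, the membrane-bound activator of Mmp2, was spread over several classes. In the control library it was highest in endothelial-like cells at 68.8 CPM (51 UMIs, interval 51.2 to 90.5), followed by cholangiocyte-like cells at 43.5 CPM (34 UMIs) and fibroblast-like cells at 32.8 CPM (3 UMIs). At resolution 2.0 this order turned, with control fibroblast-like cells at 88.3 CPM (18 UMIs, interval 52.3 to 140) and endothelial-like cells at 52.0 CPM (36 UMIs, interval 36.4 to 72.0). In the HFD library Kupffer cell-like cells at 71.6 CPM (16 UMIs), fibroblast-like cells at 59.6 CPM (26 UMIs), endothelial-like cells at 37.1 CPM and cholangiocyte-like cells at 29.0 CPM followed each other without a step beyond counting error. In the CCl4 library cholangiocyte-like and endothelial-like cells stood at 20.4 and 18.4 CPM. The endothelial ratios were 0.539 (0.342 to 0.842) and 0.267 (0.121 to 0.532), but 0.831 (0.527 to 1.30) and 1.05 (0.473 to 2.08) per endothelial marker UMI.

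The numerous hepatocyte-like cells held 143 of 307, 59 of 218 and 76 of 133 Mmp14 UMIs, at 5.20, 3.43 and 3.71 CPM, beside 1.15, 3.22 and 1.33 CPM in B cell-like cells. The hepatocyte-like clusters were unlike each other. In the control, the cluster led by Steap4, Il1r1 and Serpina3n (1533 cells) had 9.18 CPM (7.64 to 10.9) and the cluster led by Mt1, Saa2 and Saa1 (3428 cells) 1.30 CPM (0.768 to 2.05). In CCl4, the cluster led by G6pc, Etnppl and Lpin1 (2767 cells) had 5.52 CPM (4.20 to 7.12) and the one led by Hamp2, Defb1 and Angptl8 (3994 cells) 1.72 CPM (0.961 to 2.83). In HFD, the cluster led by Foxq1, Scd1 and Cyp7a1 (572 cells) had 7.85 CPM (4.72 to 12.3) against 2.39 CPM (1.61 to 3.41) in the one led by Acaa1b, Fabp5 and Inmt (5207 cells). Timp3 in the same control clusters was 4.63 and 0.864 CPM.

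Mmp19, a secreted enzyme that cuts basement membrane proteins, was the member with the most hepatocyte UMIs, 439, 369 and 666 at 16.0 (14.5 to 17.5), 21.4 (19.3 to 23.8) and 32.5 (30.1 to 35.04) CPM. The ratios to the control were 1.34 (1.17 to 1.55) for HFD and 2.04 (1.80 to 2.30) for CCl4. The 12 hepatocyte markers were at 1.19 and 1.81 of their control level, and per marker UMI the Mmp19 ratios were 1.13 (0.982 to 1.30) and 1.12 (0.994 to 1.27). Within a library the clusters differed here too, with 20.0 against 11.9 CPM in the 2 large control clusters and 39.0 against 23.2 CPM in those of CCl4.

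Other classes held Mmp19 as well, beside hepatocyte RNA. B cell-like cells had 8.42, 27.4 and 18.2 CPM, T cell-like cells 5.20, 13.7 and 16.2 CPM, and erythroid-like cells 2.51, 29.8 and 33.6 CPM. The hepatocyte marker list in erythroid-like cells stood at 34.3, 93.8 and 93.1% of its level in hepatocyte-like cells. In B cell-like cells it stood at 41.9, 77.9 and 84.6%, so there Mmp19 and the list went opposite ways from HFD to CCl4. A share of 8.04, 5.51 and 8.75% of hepatocyte-like cells had an Mmp19 UMI (median depths 3803, 2292 and 2287), beside 2.12, 6.14 and 3.85% of B cell-like cells (1948.5, 2128 and 1935). The HFD share was thus not above the background. The part of hepatocyte RNA in these levels was not tested. A few classes stood above their hepatocyte marker level. Control Kupffer cell-like cells had 42.8 CPM (47 UMIs), 2.68 times (1.94 to 3.62) the hepatocyte-like level with hepatocyte markers at 17.3%. This class was a mixture, with Ccr2, a monocyte gene, in 70.2% of its cells and C1qa in 28.2%. The C1qa-led control cluster of resolution 2.0 had 7 Mmp19 UMIs in 3 cells, 5 of them in 1 cell, at 19.2 CPM (7.72 to 39.6). The Vcan-led control cluster of resolution 2.0 had 39 UMIs, at 54.2 CPM (38.6 to 74.1). HFD classical monocyte-like cells had 33.4 CPM (72 UMIs), 1.56 times (1.19 to 2.01) the hepatocyte-like level with hepatocyte markers at 52.9%.

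**Figure D4:**
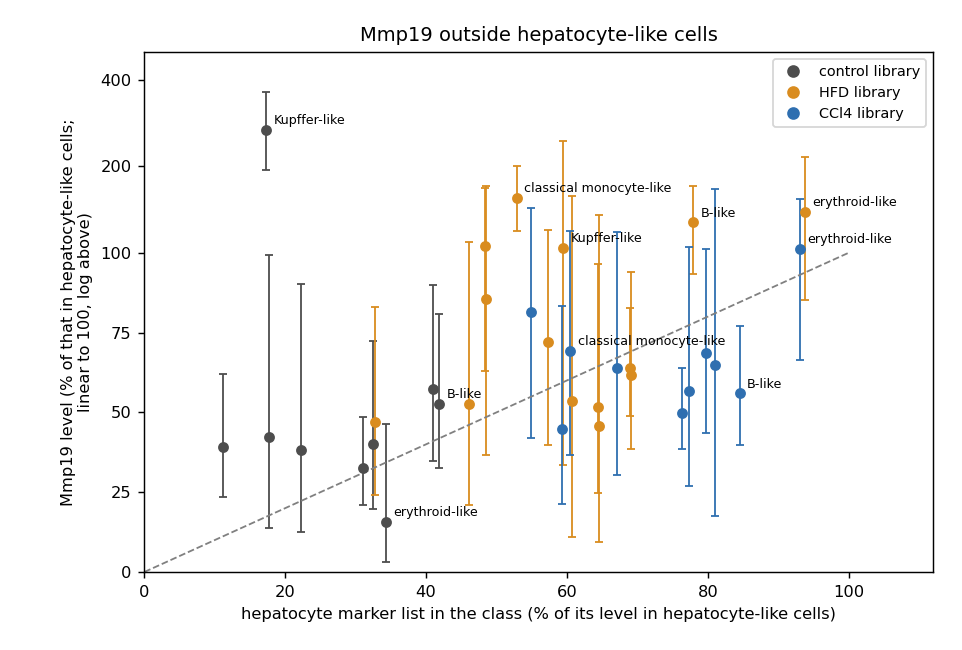
Mmp19 level of each class with at least 20 cells and 3 Mmp19 UMIs, other than hepatocyte-like cells, as a percent of the hepatocyte-like level of the same library (vertical axis, linear to 100 and logarithmic above), against the level of the hepatocyte marker list in the class (horizontal axis, percent of its hepatocyte-like level), with 95% intervals and a dashed line of equal percentages. Control Kupffer cell-like and myeloid progenitor-like cells and HFD classical monocyte-like, myeloid progenitor-like and B cell-like cells lie above the line by more than their intervals, and CCl4 B cell-like and T cell-like cells lie below it. The control Kupffer cell-like class also held cells with monocyte genes.

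How many of the 10 genes differed by at least 2-fold between libraries was counted in hepatocyte-like and endothelial-like cells, among genes with at least 10 UMIs in both libraries together. In hepatocyte-like cells 7 genes entered. For HFD over control, 1 was higher (Timp2, from 10 to 16 UMIs), where 9.88% of 13800 genes were, and 3 were lower (Timp1, Mmp8 and Mmp9), where 10.2% were. For CCl4 over control, 1 was higher (Mmp19), where 12.8% of 14027 genes were, and 4 were lower (Timp1, Timp3, Mmp8 and Mmp9), where 10.6% were. The median ratio of the 7 genes was 0.660 and 0.358, beside 1.02 and 1.03 over all genes. Mmp8 and Mmp9 in hepatocyte-like cells were at 1.38 and 0.981 CPM in the control, below their level in B cell-like cells.

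In endothelial-like cells 6 genes entered. For HFD, 1 was higher (Mmp19; 12.0% of 10754 genes) and 3 were lower (Timp3, Mmp8 and Mmp9; 18.0% of genes). For CCl4, 1 was higher (Mmp19; 12.7% of 9946 genes) and 5 were lower (Timp2, Timp3, Mmp8, Mmp9 and Mmp14; 37.8% of genes). The median ratio of the 6 genes was 0.475 and 0.257, beside 0.826 and 0.641 over all genes. The lower share among all endothelial genes in the CCl4 library was thus large as well. Mmp19 had 5, 15 and 10 UMIs in control, HFD and CCl4 endothelial-like cells. These were 6.75, 15.5 and 18.4 CPM, beside 8.42, 27.4 and 18.2 CPM in B cell-like cells, so its calls were not set apart from the background. The control Mmp8 UMIs lay in few cells (above).

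**Figure D5:**
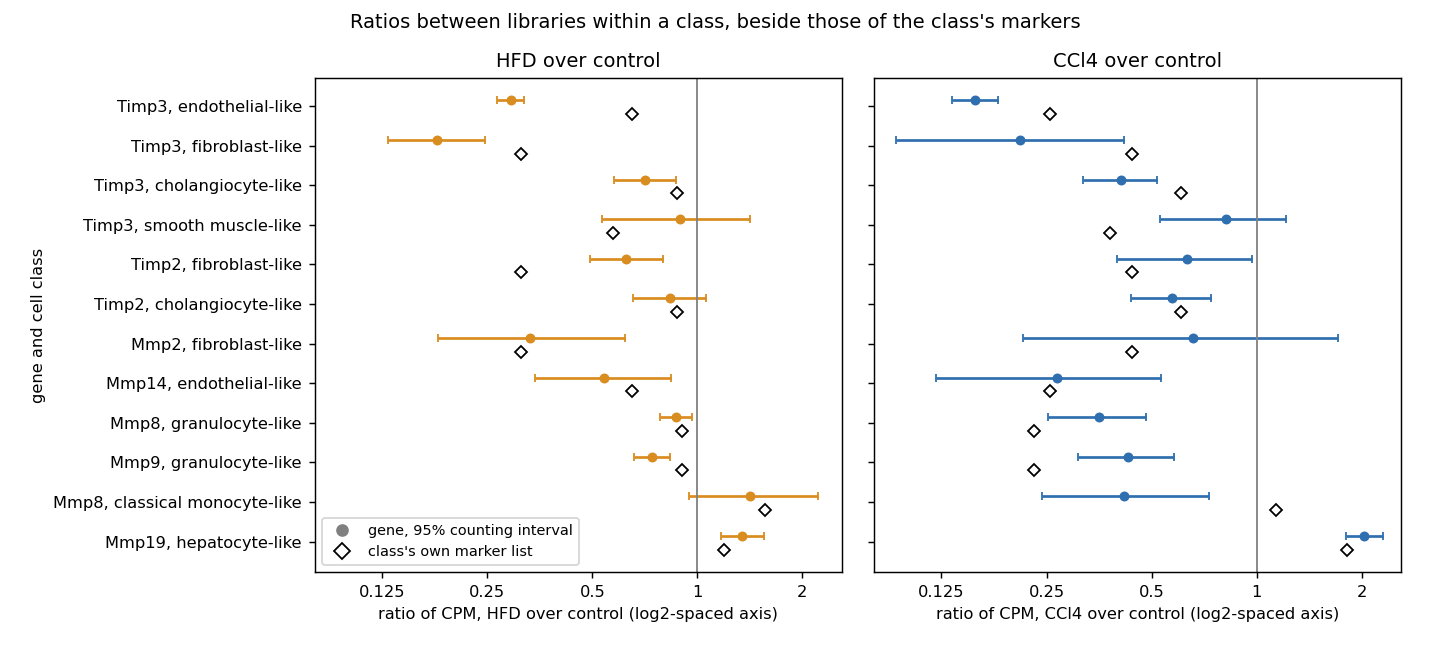
Ratio of CPM of HFD over control (left) and CCl4 over control (right) on a log2-spaced axis for 12 pairs of gene and cell class, with 95% counting intervals, beside the ratio of the class's own marker list (open diamonds). Timp3 in endothelial-like and fibroblast-like cells lies below the marker list in both comparisons, Mmp8 and Mmp9 in CCl4 granulocyte-like cells lie above it, and Mmp19 in hepatocyte-like cells lies close to it.

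The genes with the most similar pattern were sought by Pearson's r of log2(CPM + 5) over 41 pairs of class and library, among 12219 genes. The points share libraries and depth, so r is a description. Pairs needed at least 30 cells, so fibroblast-like cells entered from the HFD library only (136 cells, beside 23 in control and 15 in CCl4). Dpt, C1qa, C1qb, C1qc, Csf3r, Ngp, Ltf and Ly6g below were also on the marker lists that named the classes. Their match was thus partly set by the naming. For Timp3 these were Grb10, Rhoj and Ntn4 (r = 0.959, 0.951 and 0.949), for Mmp8 Csf3r, Cd177 and Rasgrp4 (0.965, 0.946 and 0.931) and for Mmp9 Ngp, Ltf and Ly6g (0.935, 0.930 and 0.923). Mmp2 and Timp1 shared Fbln1, Dpt and Upk3b, with r between 0.891 and 0.909 for Mmp2 and between 0.800 and 0.827 for Timp1. Upk3b was on the list of mesothelial markers, which named no class. Whether mesothelial cells lay among the fibroblast-like cells was not tested. Mmp12 and Mmp13 shared C1qa, C1qb and C1qc, with r between 0.845 and 0.862 for Mmp12 and between 0.886 and 0.897 for Mmp13. Mmp19 was followed by Lipa, Nr1h3 and F10 (0.874, 0.827 and 0.804), Mmp14 by Wwc2, Itga9 and 2510009E07Rik (0.855, 0.832 and 0.830) and Timp2 by Irf1, Ldhb and Syne2 (0.844, 0.795 and 0.765). Of the 3 genes given for each member, Spearman's rho also found 2 for Mmp19, 1 for Timp2 and 1 for Mmp8. It found 0 for every other member, Mmp2 and Timp1 among them.

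Of 47 further genes of matrix turnover, the other metalloproteinases were sparse. Mmp15, a membrane-bound enzyme, had 870 UMIs in all and was highest in cholangiocyte-like cells at 62.7, 32.2 and 27.7 CPM. These cells held only 49 of its 209 control UMIs, 20 of 372 in HFD and 19 of 289 in CCl4. In hepatocyte-like cells Mmp15 was at least 2-fold higher in HFD than in the control. Mmp25, a membrane-bound enzyme of leukocytes, had 230 UMIs and was highest in granulocyte-like cells at 45.4, 37.8 and 21.1 CPM. Among other inhibitors, Pzp, an alpha-2-macroglobulin that traps proteinases, stood at 1190 CPM in control hepatocyte-like cells, 495.0 in HFD and 737.9 in CCl4.

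Plg, plasminogen, was at 854.9, 906.6 and 1187 CPM in hepatocyte-like cells, and Bsg, basigin, an inducer of metalloproteinases, at 678.9, 1037 and 629.1 CPM in cholangiocyte-like cells. Adam10 was highest in Kupffer cell-like cells (189.2, 156.6 and 225.3 CPM) and Adam9 in smooth muscle-like cells (21, 0 and 1 UMIs). Of the cathepsins, Ctsb was highest in Kupffer cell-like cells at 1506, 1606 and 1877 CPM and Ctsl in plasmacytoid dendritic-like cells at 734.8, 825.6 and 826.6 CPM. Lcn2, lipocalin-2, which forms a complex with Mmp9, stood at 3730, 2508 and 474.9 CPM in granulocyte-like cells. These cells held only 8141 of its 107279 control UMIs, beside 2256 of 3369 in HFD and 90 of 1318 in CCl4. Most of its control UMIs thus lay in other classes. Lrp1, a receptor that takes up proteinase-inhibitor complexes, stood at 343.8, 170.0 and 300.4 CPM in Kupffer cell-like cells. By the 2-fold rule, 4 of 26 such genes were higher and 7 lower in HFD hepatocyte-like cells, where 9.88 and 10.2% of all genes were. In CCl4 hepatocyte-like cells 3 and 9 of 24 were, beside 12.8 and 10.6% of all genes. In HFD endothelial-like cells 1 and 10 of 26 were, beside 12.0 and 18.0%. In CCl4 endothelial-like cells 2 and 15 of 24 were, beside 12.7 and 37.8%.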

How the data were processed

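Single-cell RNA of 3 mouse liver libraries (10x Genomics Chromium 3' kit version 3.1) was analysed from the count matrices deposited by the authors, which hold raw UMI counts per gene and barcode from Cell Ranger 7.2.0. The study's methods name the mm10 genome and the submitters' processing notes GRCm39, so no coordinate was taken from the counts. The positions come from GENCODE M21 (GRCm38), where 52081 of 55357 identifiers were found. Exon and intron reads are not resolved in the counts. A barcode needed 500 UMIs and 200 genes or more, and no more than 30% of UMIs from mitochondria. Scrublet marked 2, 1 and 3 barcodes in the control, HFD and CCl4 libraries, and these were left out as well. In all, 36945 of 36990 barcodes were kept. Since Scrublet marked so few barcodes, its calls had not worked, and most doublets may remain.

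Counts were scaled to 10000 per cell, log-transformed, and clustered without batch correction (2000 variable genes without Mmp and Timp genes, 30 components, 15 neighbours, Leiden resolution 1.0). Of 40 clusters, 37 were named from 20 marker lists, where at least 3 of the 10 leading genes were markers or at least 3 markers were raised 1.5-fold over the median of the clusters. This naming rule was adjusted after the data were seen, and 1380 cells stayed unnamed. UMIs were summed per class and library. Exact Poisson, Clopper-Pearson and conditional binomial 95% intervals cover counting error only, a count of 0 was given the limit that 3 counts set, and thinning to 1000 UMIs left out no cell. A fold call was at least 2-fold among genes with at least 10 UMIs. No p-value was computed, since each condition is 1 library. The 10 genes, the 6 lists of matrix-turnover genes and the markers were chosen with earlier results of these data known. Besides the 10 genes, the text names the 2 genes with the most UMIs of each list, the 3 genes of most similar pattern, genes on the opposite strand and the genes leading a cluster. A gene that this rule names is not reported here. Markers named for a class were chosen after their values were seen. The scripts were tested on simulated counts and ran in Python 3.11.15. Clustering used scanpy 1.11.5 with python-igraph 0.11.9, intervals scipy 1.17.1, tables pandas 2.3.3 and figures matplotlib 3.10.9.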

Additional observations from a re-analysis of the deposited data

How the results depend on the processing

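No paired analysis was possible because each condition is 1 library and no result comes from a test across samples. Of 260 values of the main ratios under the alternatives, 201 moved by less than their counting interval and 51 moved further. Another 8 of those at least 2-fold apart crossed 1. For changes named here the cause was not tested. With UMIs counted per UMI of a class's own markers (chosen after seeing the data), the ratios were 2.00 (HFD) and 1.43 (CCl4) for Timp2 in fibroblast-like cells, both turned in direction, 0.450 and 0.612 for Timp3 in endothelial-like cells, 1.13 and 1.12 for Mmp19 and 0.393 (CCl4) for Mmp14 in hepatocyte-like cells. On that scale the direction also turned for Mmp2 in fibroblast-like cells (HFD, 1.06, and CCl4, 1.49), Timp3 in smooth muscle-like cells (HFD, 1.55, and CCl4, 2.15), Mmp14 in endothelial-like cells (CCl4, 1.05) and, in CCl4 granulocyte-like cells, Mmp8 (1.53), Mmp9 (1.86) and Timp2 (1.37). Among these turned ratios, the interval left out 1 only for Timp2 in HFD fibroblast-like cells, Timp3 in CCl4 smooth muscle-like cells, Mmp8 and Mmp9. For Timp3 in smooth muscle-like cells the intervals of the CPM ratios had included 1 too.

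The Kupffer cell-like ratios depended most on the clustering. For Mmp12 the CCl4 ratio of 2.35 became 0.488 at resolution 2.0, 0.517 with 4000 variable genes, 0.593 with Mmp and Timp genes kept among them, 0.440 with at least 2000 UMIs per cell and 0.639 without the 8% of barcodes with the highest Scrublet scores. The HFD ratio of 0.894 became 0.107, 0.287, 0.327, 0.282 and 0.287 in the same order, and 0.0777 with each library clustered on its own. For Mmp13 the HFD ratio of 0.937 became 0.112, 0.301, 0.343, 0.380, 0.349 and 0.0931, and the CCl4 ratio was 0 without its richest barcode.

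For Timp3 in endothelial-like cells the HFD and CCl4 ratios were 0.330 and 0.277 at resolution 0.5, 0.368 and 0.193 with each library on its own, 0.320 and 0.187 outside mitochondrial and the 20 most abundant genes, 0.252 and 0.122 without the 8% of barcodes, 0.181 and 0.108 as UMIs per 1000 cells, and 0.333 (HFD) without the richest barcode. For Timp2 in fibroblast-like cells they were 1.07 and 1.03 at resolution 2.0, and 1.03 (HFD) without the 8% of barcodes. As UMIs per 1000 cells, Mmp8 in granulocyte-like cells gave 0.642 and 0.207, Mmp9 0.546 and 0.251, and in hepatocyte-like cells Mmp14 gave 0.320 and 0.374 and Mmp19 0.653 and 1.07, so that Mmp19 was no longer higher in HFD. Mmp8 in granulocyte-like cells was at 0.503 (CCl4) with at least 2000 UMIs, 0.236 (CCl4) with each library on its own and 0.707 (HFD) without the 8% of barcodes, and Mmp9 at 0.278 (CCl4) and 0.590 (HFD) under the last 2. With markers raised against all other cells (chosen after seeing the data), Mmp14 in hepatocyte-like cells was at 0.356 and 0.404 and Mmp19 at 1.08 and 1.62.

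Counts of genes at least 2-fold apart changed as well. Without the 8% of barcodes, 1 gene was lower in HFD hepatocyte-like cells, and in endothelial-like cells 0 were higher and 1 lower in HFD and 3 lower in CCl4. As UMIs per 1000 cells, 0 were higher in all 4 comparisons and 5 were lower in HFD hepatocyte-like and in HFD endothelial-like cells. With markers raised against all other cells, 0 were higher in hepatocyte-like cells of either library and 5 lower in HFD. With each library on its own, 0 were higher in HFD hepatocyte-like cells and in endothelial-like cells of either library. At resolution 0.5, 0 were higher and 2 lower in CCl4 endothelial-like cells, and without the richest barcode 1 was lower in HFD and 3 in CCl4. Of the 30 genes of most similar pattern, 4 were also found by Spearman's rho. Depth limited Timp1, Mmp2, Mmp12 and Mmp13 most, each with fewer than 100 UMIs in any library.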
